A study of Mus musculus with 4 samples.

Results

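A group of 10 genes that set or mark the epithelial and mesenchymal state of a cell were followed in cultured mouse mammary tumor cell lines with and without the JNK kinases. The genes were taken by symbol, and all 10 of 10 were found among the 38713 genes of the expression table and passed the filter on low values that left 12998 genes for testing (FPKM of at least 1 in at least 2 libraries). They were the epithelial genes Cdh1, Grhl2 and Esrp1, the mesenchymal effectors Cdh2 and Vim, and the transcription factors Snai1, Twist1, Twist2, Zeb1 and Zeb2.

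RNA was sequenced from 4 lines, with 1 library per line. JNK_WT lines 1 and 2 (labelled p53-/-) came from C57BL/6 mice in which floxed Trp53 was deleted by Wap-Cre, and JNK_KO lines 1 and 3 (labelled p53-/- JNK-/-) from mice of that strain in which Wap-Cre deleted floxed Trp53, Mapk8 and Mapk9, the last being the genes for JNK1 and JNK2. Both groups therefore lacked Trp53, so the comparison asks what the loss of JNK adds in p53-deficient tumor cells. The Wap promoter is switched on by lactation in the mammary epithelium, and the tumors arose in mice that had borne young. Collagenase-dispersed tumors were grown on collagen I for 2 passages and then on ordinary dishes until a line was established. The ages of the mice were not in the labels, and whether a line stems from 1 clone was not stated. The p-values below measure the spread among these lines alone. In cultures sequenced in bulk, fewer cells of a type and less RNA per cell cannot be told apart.

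The libraries were similar in overall scale, with an upper quartile of the tested genes between 33.2 and 34.3 FPKM (fragments scaled by transcript length and by the fragments mapped in the library, a level per length that can be set side by side between genes). Pairs of libraries had Pearson correlations of their log2 levels from 0.862 to 0.907, and none was a copy of another. Mapk8 was at 23.9 and 19.1 FPKM in the JNK_WT lines and at 4.30 and 4.27 FPKM in the JNK_KO lines, and Mapk9 was at 29.7 and 24.3 FPKM in the JNK_WT lines and at 12.6 and 8.66 FPKM in the JNK_KO lines, lower in both but not near 0. The study reported that JNK protein was not detected in its JNK_KO tumor cells by immunoblot. Trp53 lay between 1.55 and 5.72 FPKM across the 4 lines. For Mapk8, Mapk9 and Trp53 these are whole-gene values, which do not separate deleted from retained exons. Of 24 epithelial genes, 23 reached 1 FPKM in JNK_WT 1 and all 24 did in each other line. Of 7 leukocyte markers in the table, 2, 1, 1 and 2 reached 1 FPKM in JNK_WT 1, JNK_WT 2, JNK_KO 1 and JNK_KO 3. These were Cd68, which many cell types carry in lysosomes, at 20.0, 3.15, 2.65 and 8.43 FPKM, and Csf1r, at 1.82 FPKM in JNK_WT 1 and 1.23 FPKM in JNK_KO 3, while the pan-leukocyte gene Ptprc was at most 0.0134 FPKM. For endothelial markers, 0 of 6 reached 1 FPKM in any line.

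Epithelial cells hold to their neighbours through E-cadherin, and in the epithelial to mesenchymal transition (EMT) they exchange this for N-cadherin, vimentin filaments and a motile form. Factors of the Snail, Zeb and Twist families drive the change, with Snail and Zeb proteins acting by binding E-box sequences and repressing epithelial genes, while GRHL2 opposes Zeb1 and the ESRP proteins keep splicing in its epithelial pattern. In the mammary gland the luminal and basal layers sit at different points of this range, and breast tumors often hold mixed states.

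All 4 lines expressed epithelial and mesenchymal genes at the same time. By mean level over the libraries, Vim came highest at 259 FPKM, followed by Cdh1 at 105, Esrp1 at 46.1, Twist1 at 24.0, Grhl2 at 19.5, Cdh2 at 18.4, Snai1 at 11.3, Zeb2 at 5.23, Zeb1 at 4.05 and Twist2 at 2.75 FPKM. Neighbours in this order were higher in 4 of 4 libraries only for Cdh1 over Esrp1, Esrp1 over Twist1 and Snai1 over Zeb2, so the other neighbours could not be ranked beyond the spread between lines. Vim stood at percentile 97.5 and Cdh1 at percentile 92.8 of the tested genes by mean level, whereas Zeb1 and Twist2 stood at percentiles 19.9 and 13.6. Spread between lines was narrower for the epithelial than for the mesenchymal genes of the group. The highest line was 2.14 times the lowest for Esrp1, 2.18 times for Cdh1 and 3.42 times for Grhl2. Among the mesenchymal genes it was from 4.64 times for Twist1 up to 28.4 times for Cdh2 and 43.7 times for Twist2.

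**Figure D1:**
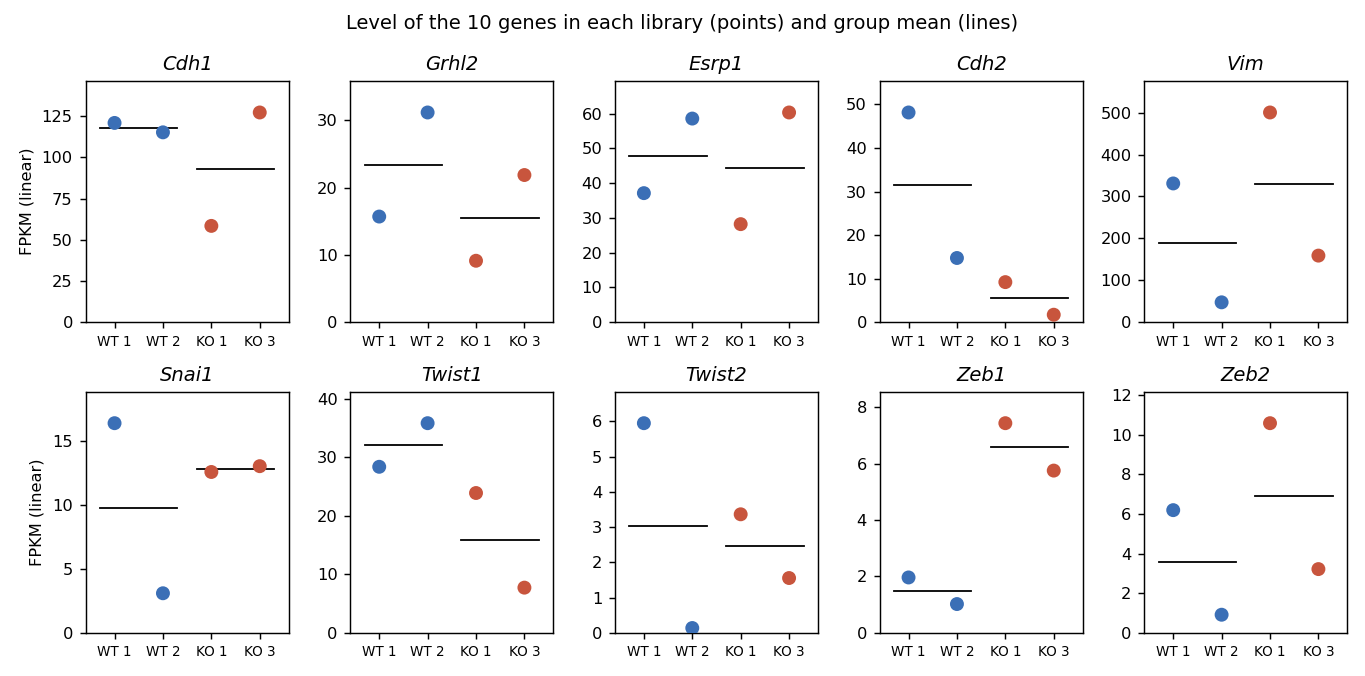
FPKM (vertical axis, linear, starting at 0) of the 10 genes in each library, with blue points for JNK_WT lines 1 and 2, red points for JNK_KO lines 1 and 3 and horizontal lines for group means. Zeb1 is at 1.96 and 1.02 FPKM in JNK_WT and at 7.44 and 5.76 FPKM in JNK_KO lines, Cdh2 and Twist1 lie lower in both JNK_KO lines, and the groups of the other 7 genes overlap.

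Between the genotypes, Zeb1 was higher and Cdh2 and Twist1 were lower in both JNK_KO lines than in either JNK_WT line, and the groups overlapped for the other 7 genes. The 1 gene of 10 that was higher without overlap stands beside 18.3% of all tested genes, and the 2 of 10 that were lower without overlap stand beside 16.7%. By limma with Benjamini-Hochberg adjustment, at an adjusted p-value under 0.05 and an absolute log2 difference over 0.75, 0 of the 10 genes were called, as were 0 of all genes (0%, smallest adjusted p-value 0.0515). At an unadjusted limma p-value under 0.05 there were 2 of the 10 genes, Zeb1 and Cdh2, beside 992 of all genes (7.63%). Differences, always JNK_KO minus JNK_WT on the log2(FPKM + 1) scale, were above 0 for 5 genes and below 0 for 5, with a median of 0.04 beside 0.01 for all tested genes. Their median absolute size was 0.81, beside 0.27 for all tested genes.

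**Figure D2:**
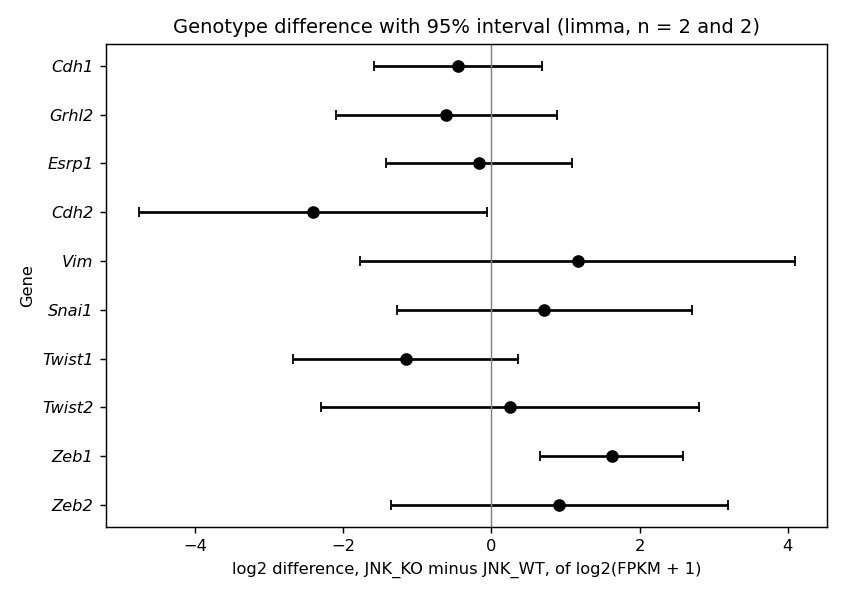
Difference of each gene between genotypes (horizontal axis, JNK_KO minus JNK_WT on the log2(FPKM + 1) scale, n = 2 lines each). Points are limma estimates and bars their 95% intervals, which leave out 0 for Zeb1 (0.66 to 2.59) and, barely, for Cdh2 (-4.76 to -0.05).

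Among the epithelial genes, Cdh1, which encodes E-cadherin (GRCm38 chr8:106603351-106670246, plus strand), measured 121 and 115 FPKM in JNK_WT lines 1 and 2 and at 58.4 and 127 FPKM in JNK_KO lines 1 and 3. JNK_KO 1 was thus low and JNK_KO 3 the highest of the 4, so the groups overlapped. The means were 118 ± 4.04 and 92.8 ± 48.7 FPKM (SD, n = 2 each), a difference of -0.45 (SE 0.43, limma adjusted p = 0.972). The interval of this difference, -1.58 to 0.69, spans both a loss and a gain.

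Grhl2, whose product switches on epithelial junction genes including Cdh1 (chr15:37233036-37363569, plus strand), measured 15.7 and 31.2 FPKM in JNK_WT lines and at 9.13 and 21.9 FPKM in JNK_KO lines. Its lines alternated, with JNK_WT 2 and JNK_KO 3 above JNK_WT 1 and JNK_KO 1, and the genotype difference was -0.61 (SE 0.56, limma adjusted p = 0.966), which shrank to -0.019 without JNK_KO 1 and to -0.13 without JNK_WT 2. The exons of Grhl2 share 169 bases with the antisense gene Gm16136, and the counting was not stated to use strand. Esrp1, which encodes a splicing factor of epithelial cells (chr4:11331933-11386783, minus strand), showed the same alternation at 37.1 and 58.6 FPKM in JNK_WT lines and 28.2 and 60.3 FPKM in JNK_KO lines. Its genotype difference was -0.17 (SE 0.47, limma adjusted p = 0.999, interval -1.42 to 1.08). The exons of Esrp1 share 127 bases with Gm26663 on the other strand. All 3 epithelial genes were lowest in JNK_KO 1, as were 24.3% of all tested genes, a count chosen after the values were seen.

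The wider list of 24 epithelial genes, which holds keratins, claudins and junction proteins but none of the genes above, had 0 genes called and a median difference of -0.38. The lowest line was JNK_KO 1 in 18 of the 24, beside 24.3% of all tested genes, a count chosen after the values were seen. Of the 24, 22 were higher in JNK_KO 3 than in JNK_KO 1. The median of JNK_KO 3 minus JNK_KO 1 was 0.95 in the list and 0.01 over all tested genes. Without overlap, 6 were lower in JNK_KO lines (Epcam, Krt8, Krt7, Spint2, Pkp3 and Lad1) and 0 were higher, beside 16.7% and 18.3% of all tested genes. The largest differences of the list were those of the adhesion molecule gene Epcam at -1.19, the claudin gene Cldn4 at -1.13 and the luminal keratin gene Krt8 at -1.003. Epcam was at 359.7 and 629.7 FPKM in JNK_WT lines and at 150.3 and 286 FPKM in JNK_KO lines. Leaving out 1 line moved the median of the list from -0.83 without JNK_KO 3 to 0.07 without JNK_KO 1.

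Cdh2, the gene of N-cadherin, was the member with the widest genotype difference. It lies on chromosome 18 (GRCm38, 16588877 to 16809246, minus strand) and measured 48.2 and 14.7 FPKM in JNK_WT lines and at 9.19 and 1.70 FPKM in JNK_KO lines. JNK_WT 1 was far the highest and JNK_KO 3 the lowest, and both JNK_KO lines lay below both JNK_WT lines. On the log2(FPKM + 1) scale, the step from JNK_WT 2 to JNK_KO 1 was smaller than either difference within a genotype. Those were -1.64 for JNK_WT 2 minus JNK_WT 1 and -1.92 for JNK_KO 3 minus JNK_KO 1. The means were 31.4 ± 23.6 and 5.44 ± 5.30 FPKM (SD, n = 2 each). The difference was -2.41 (SE 0.88), with an unadjusted limma p-value of 0.0467 and an adjusted one of 0.645. Other settings gave adjusted p-values from 0.637 to 0.781, and leaving out each line in turn gave differences from -3.37 to -1.45. Measured against the median of the 315 tested genes on its chromosome, the difference was -2.48.

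The other cadherins had differences in both directions (10 genes of cadherins and catenins in the table, 7 tested, 0 called, median -0.16). Without overlap, 2 of the 7 cadherins and catenins were higher in JNK_KO lines and 3 were lower, beside 18.3% and 16.7% of all tested genes. Cdh3, which encodes the P-cadherin of basal epithelium, was at 7.64 and 15.3 FPKM in JNK_WT lines and at 3.75 and 1.62 FPKM in JNK_KO lines, so it lay lower without overlap, as Cdh2 did (-1.75, SE 0.51, limma adjusted p = 0.498). Cdh11, the gene of a cadherin of mesenchymal cells, ran the other way, at 0.190 and 0.564 FPKM in JNK_WT lines and 43.3 and 8.73 FPKM in JNK_KO lines (3.93, SE 0.80, limma adjusted p = 0.333). Cdh13, which encodes a membrane-anchored cadherin without a cytoplasmic tail, was at 0.0306 FPKM in JNK_WT 1, 17.6 in JNK_WT 2 and 33.2 and 22.2 FPKM in the JNK_KO lines. Its groups did not overlap, but the step that stood out was between JNK_WT 1 and the other lines. Cdh4, Cdh5 and Cdh6 did not exceed 0.0573 FPKM anywhere.

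**Figure D3:**
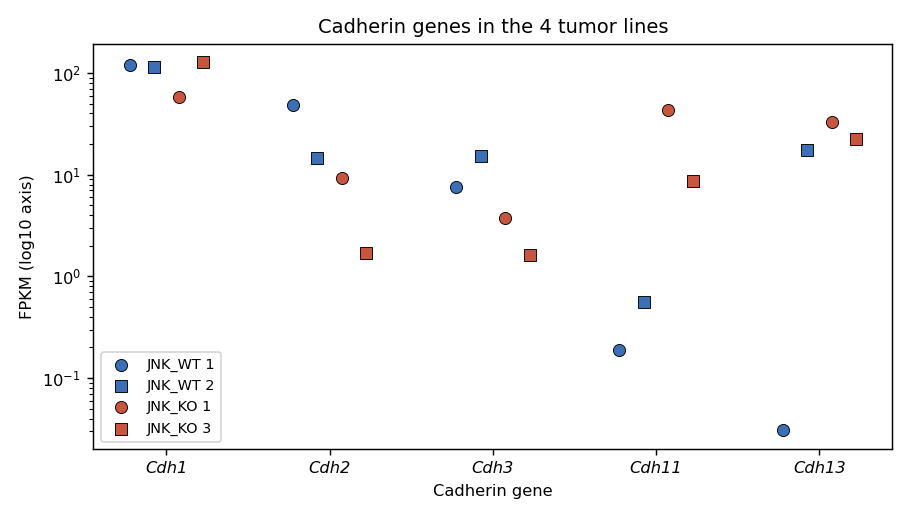
FPKM of 5 cadherin genes (vertical axis, log10 scale) in the 4 lines, blue for JNK_WT and red for JNK_KO, with 1 symbol per line and no error bars. Cdh1 stays between 58.4 and 127 FPKM, Cdh2 and Cdh3 lie lower in both JNK_KO lines, and Cdh11 goes from at most 0.564 FPKM in JNK_WT to at least 8.73 FPKM in JNK_KO lines.

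The catenins, which tie cadherins to the cytoskeleton, were abundant throughout. Beta-catenin (Ctnnb1) was at 414 and 694 FPKM in JNK_WT lines and 408 and 995 FPKM in JNK_KO lines, and alpha-catenin (Ctnna1) stayed between 187 and 236 FPKM. Plakoglobin (Jup), which serves both adherens junctions and desmosomes, was at 216 and 478 FPKM in JNK_WT lines and at 93.2 and 195 FPKM in JNK_KO lines. Jup and p120-catenin (Ctnnd1) were lower without overlap, with differences of -1.24 (SE 0.56) and -0.44 (SE 0.22), neither of them called.

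Vim, the gene of the intermediate filament vimentin (chr2:13573927-13582826, plus strand), measured 331 and 47.2 FPKM in JNK_WT lines and at 500.4 and 159 FPKM in JNK_KO lines. Replicate 1 of each genotype was the high line and the groups overlapped. The means of 189 ± 201 and 329.6 ± 242 FPKM (SD, n = 2 each) gave a difference of 1.16 (SE 1.10, limma adjusted p = 0.971), which turned to -0.23 without JNK_WT 2.

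Other genes used as mesenchymal effectors showed no common direction by genotype (12 in the table, 10 tested, 0 called, 4 above and 6 below 0, median -0.15). Fibronectin (Fn1) was at 483 and 226 FPKM in JNK_WT lines and 311 and 189 FPKM in JNK_KO lines, and the hyaluronan receptor gene Cd44 at 273 and 134 against 171 and 112 FPKM. Fstl1, a secreted glycoprotein gene, was higher without overlap, at 8.49 and 22.4 against 71.3 and 26.3 FPKM (1.57, SE 0.68, limma adjusted p = 0.72). Without JNK_WT 1 the median of the list was 0.45. It had a median of -0.75 for JNK_WT 2 minus JNK_WT 1 and of 0.04 for JNK_KO 3 minus JNK_KO 1.

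Of the EMT factors, Snai1, which encodes the E-box repressor Snail (chr2:167538195-167542814, plus strand), measured 16.4 and 3.10 FPKM in JNK_WT lines and at 12.6 and 13.0 FPKM in JNK_KO lines. The JNK_KO lines were alike and lay between the JNK_WT lines, of which JNK_WT 2 was low. The difference was 0.71 (SE 0.75, limma adjusted p = 0.979), and it was -0.33 without JNK_WT 2.

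The promoter of Snai1 is shown because Snail, Zeb and Twist proteins bind E-boxes, and among the members searched it was the sole promoter with such a site. The 250 bases before the start site were searched on both strands for the E-box CAGGTG, which reads CACCTG on the other strand, and for the wider form CANNTG, at 8 start sites of 5 members (Snai1, Twist1, Twist2, Vim and Zeb2) in the RefSeq table of GRCm38.p6. Snai1 held 1 match, 126 bases before the start, which is also its only match to the wider form. The stretch chr2:167537945-167538194 (plus strand) reads as follows, with the E-box in capitals.
Snai1 promoter: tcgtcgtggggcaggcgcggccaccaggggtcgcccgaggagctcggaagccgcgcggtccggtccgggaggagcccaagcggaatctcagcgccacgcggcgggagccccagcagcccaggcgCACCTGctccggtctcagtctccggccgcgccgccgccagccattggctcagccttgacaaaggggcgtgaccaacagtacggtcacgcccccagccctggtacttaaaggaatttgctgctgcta
Of 32851 promoters in the table, 17.2% held CAGGTG or CACCTG and 66.2% held CANNTG. The AP1 motif TGAGTCA or TGACTCA, added after the values were seen because JNK acts on AP1, was found in 1 of the 4 Zeb2 start windows, with 2 matches, and in none of the other members' windows. At least 1 such match was held by 4.46% of all promoters and at least 2 by 0.167%. These are matches of letters and say nothing of binding.

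Twist1, a basic helix-loop-helix factor gene (chr12:33957671-33959829, plus strand), measured 28.4 and 35.8 FPKM in JNK_WT lines and at 23.9 and 7.73 FPKM in JNK_KO lines. Both JNK_KO lines lay below both JNK_WT lines, JNK_KO 1 narrowly and JNK_KO 3 by far. The means were 32.1 ± 5.27 and 15.8 ± 11.4 FPKM (SD, n = 2 each) and the difference was -1.16 (SE 0.57, interval -2.67 to 0.36, limma adjusted p = 0.788). Without JNK_KO 3 it was -0.40. Tested genes of chromosome 12 had a median difference of -0.41, and measured against that median the difference of Twist1 was -0.75. Its paralog Twist2 (chr1:91801461-91848028, plus strand) was low, at 5.95 and 0.136 FPKM in JNK_WT lines and 3.37 and 1.56 FPKM in JNK_KO lines. Here the 2 JNK_WT lines were the highest and the lowest, and the difference was 0.25 (SE 0.96, limma adjusted p = 0.999). Exons of Twist2 overlap the antisense gene Gm29100 by 1477 bases, so its reads cannot be assigned with certainty.

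Zeb1, which encodes a zinc finger repressor of Cdh1 and of epithelial splicing genes, had the smallest p-value of the members. It lies on chromosome 18 (GRCm38, 5591860 to 5775467, plus strand) and measured 1.96 and 1.02 FPKM in JNK_WT lines and at 7.44 and 5.76 FPKM in JNK_KO lines. Lines of the same genotype were close and the groups were clearly apart, the lowest JNK_KO line exceeding the highest JNK_WT line by more than the spread within either group. The means were 1.49 ± 0.667 and 6.60 ± 1.19 FPKM (SD, n = 2 each). The difference was 1.63 (SE 0.36), with an unadjusted limma p-value of 0.00837 and an adjusted one of 0.378. Other settings gave adjusted p-values from 0.324 to 0.629, and leaving out each line in turn gave differences from 1.35 to 1.90. Because the level is low, the log2(FPKM + 1) scale understates the ratio, and a pseudocount of 0.1 gave a difference of 2.13.

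Of 10 fibroblast markers 5 were tested and 0 were called. Without overlap, 3 were higher in JNK_KO lines and 0 were lower, beside 18.3% and 16.7% of all tested genes. Summed over the 10 genes, the level was 13.3 and 4.36 FPKM in JNK_WT lines and 109 and 204 FPKM in JNK_KO lines, and 2, 1, 3 and 7 of them reached 1 FPKM in JNK_WT 1, JNK_WT 2, JNK_KO 1 and JNK_KO 3. The 3 were the matrix gene Dcn (79.7 and 162 FPKM in JNK_KO lines 1 and 3), which made up most of the sums in these lines, and 2 receptor genes. Those were Pdgfra (24.7 and 7.82 FPKM) and Pdgfrb (2.17 and 2.99 FPKM). Groups overlapped for Postn, at 25.6 FPKM in JNK_KO 3 and at most 2.58 FPKM elsewhere, and for Col1a2, at 10.3 FPKM in JNK_WT 1 and at most 2.56 FPKM elsewhere. Col3a1 (1.33 FPKM) and Thy1 (1.19 FPKM) passed 1 FPKM in JNK_KO 3 alone, and Lum, Col1a1 and Fap were at most 0.00840, 0.527 and 0.237 FPKM. Between the JNK_KO lines, the sum, Dcn and Pdgfrb were higher in JNK_KO 3, and Pdgfra and Zeb1 were higher in JNK_KO 1. The part of such cells or markers in the Zeb1 difference was not tested.

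Zeb2, the paralog of Zeb1 (chr2:44983632-45117395, minus strand), had overlapping groups. It was at 6.20 and 0.914 FPKM in JNK_WT lines and at 10.6 and 3.22 FPKM in JNK_KO lines. The lines ranked JNK_KO 1, JNK_WT 1, JNK_KO 3 and JNK_WT 2 from high to low, which was also the order of Vim. The difference was 0.91 (SE 0.85, interval -1.36 to 3.19, limma adjusted p = 0.968) and went to -0.042 without JNK_WT 2. Exons of Zeb2 overlap antisense and small RNA genes by 662 bases in all. Whether Zeb1 and Zeb2 differ in their response to genotype was not tested.

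Lines of the same genotype differed from each other in most of these genes. Between the JNK_WT lines, 5 of 10 genes differed by more than 1 on the log2(FPKM + 1) scale, beside 18.1% of all tested genes, and all 5 were lower in JNK_WT 2. These were Vim (-2.78), Twist2 (-2.61), Snai1 (-2.09), Zeb2 (-1.91) and Cdh2 (-1.64), all of them mesenchymal. Of the remaining mesenchymal genes, Zeb1 (-0.55) was lower by less and Twist1 (0.33) was higher in JNK_WT 2. Grhl2 (0.95) and Esrp1 (0.64) were higher in JNK_WT 2, and Cdh1 (-0.07) hardly differed. Of the 10 genes, 5 had their lowest value in JNK_WT 2 (Vim, Snai1, Twist2, Zeb1 and Zeb2), as had 27.4% of all tested genes, a count chosen after the values were seen.

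Between the JNK_KO lines, 7 of 10 genes differed by more than 1, beside 11.5% of all tested genes. All 3 epithelial genes were higher in JNK_KO 3, by 1.11 for Cdh1, 1.18 for Grhl2 and 1.07 for Esrp1. The 4 others were lower in JNK_KO 3, with Cdh2 at -1.92, Vim at -1.65, Twist1 at -1.51 and Zeb2 at -1.46. Snai1 (0.05), Zeb1 (-0.32) and Twist2 (-0.77) differed by less. Over the 10 genes the median absolute difference was 1.30 within JNK_WT and 1.14 within JNK_KO, beside 0.43 and 0.33 over all tested genes.

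**Figure D4:**
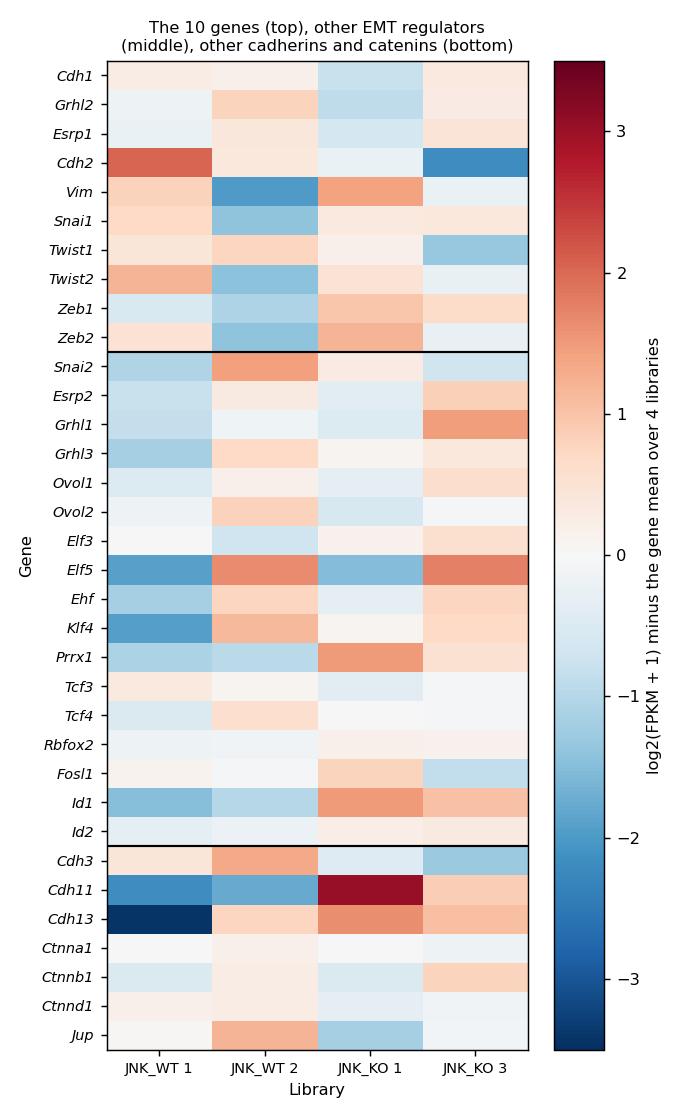
Level of each gene in each line relative to its own mean over the 4 lines (color, log2(FPKM + 1)), for the 10 genes, the other EMT regulators and the other cadherins and catenins with 1 column per line. JNK_WT 2 is low for Vim, Snai1, Twist2 and Zeb2, and JNK_KO 1 is low for Cdh1, Grhl2 and Esrp1. Genes that separate the columns by genotype include Zeb1, Prrx1, Id1 and Cdh11, higher in JNK_KO lines. Others, among them Cdh2, Twist1, Cdh3, Jup, Ctnnd1 and Tcf3, are lower in JNK_KO lines.

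Basal markers of the mammary gland also differed within each genotype. Summed over 8 markers they were at 26.2 FPKM in JNK_WT 1, 736 in JNK_WT 2, 38.6 in JNK_KO 1 and 376 FPKM in JNK_KO 3. The basal keratin gene Krt14 made up most of the sums in JNK_WT 2 and JNK_KO 3, while Krt5 passed 1 FPKM in JNK_WT 2 alone, at 61.9 FPKM. Mylk and Cnn1 also passed 1 FPKM in JNK_WT 2 alone. In JNK_KO 3, Krt5, Mylk and Cnn1 were at only 0.205, 0.369 and 0.438 FPKM. Acta2 went against the sums in JNK_WT lines 1 and 2 (7.36 and 3.19 FPKM) and with them in JNK_KO lines 1 and 3 (1.70 and 29.0 FPKM). Trp63, a basal transcription factor gene, was at 0.0706, 21.9, 1.16 and 6.58 FPKM in JNK_WT 1, JNK_WT 2, JNK_KO 1 and JNK_KO 3. In each genotype the line with more Krt14 had less Vim, Zeb1, Zeb2, Twist2 and Cdh2 and more Grhl2 and Esrp1. Twist1, Cdh1 and Snai1 did not follow this in both genotypes. By log2 difference within a genotype, Twist1 (0.33) was higher and Cdh1 (-0.07) slightly lower in JNK_WT 2, and Snai1 (0.05) slightly higher in JNK_KO 3. The comparison was made after the values were seen and rests on 1 pair of lines per genotype. The part of basal cells in these differences was not tested.

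Ratios of an epithelial to a mesenchymal gene were taken within each library, so that they do not depend on scaling between libraries. The ratio of Grhl2 to Zeb1, whose products are known to repress each other's genes, was 7.99 and 30.6 in JNK_WT lines and 1.23 and 3.80 in JNK_KO lines. It was lower in both JNK_KO lines than in either JNK_WT line. The difference was -2.23 on the log2 scale with 1 FPKM added to each gene. An exact two-sided permutation test gave p = 0.333, the smallest that 4 lines can give. By construction the ratio difference is that of Grhl2 (-0.61) minus that of Zeb1 (1.63), so it is not separate from the Zeb1 result above. The ratio of Esrp1 to Zeb2 was 5.99 and 64.1 in JNK_WT lines and 2.66 and 18.7 in JNK_KO lines, which overlapped (log2 difference -1.09, exact permutation p = 0.667).

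The ratio of Cdh1 to Cdh2 was 2.51 and 7.82 in JNK_WT lines and 6.36 and 74.9 in JNK_KO lines, so E-cadherin mRNA exceeded N-cadherin mRNA in every line and the most in JNK_KO 3 (log2 difference 1.96, exact permutation p = 0.667). The ratio of Cdh1 to Vim was 0.365 and 2.44 in JNK_WT lines and 0.117 and 0.802 in JNK_KO lines, above 1 in JNK_WT 2 alone (log2 difference -1.61, exact permutation p = 0.667). The order of the lines was the same for Esrp1 to Zeb2 and Cdh1 to Vim and differed for the other ratios. JNK_WT 2 had the highest and JNK_KO 1 the lowest ratio of Grhl2 to Zeb1, Esrp1 to Zeb2 and Cdh1 to Vim. For Cdh1 to Cdh2 the highest was JNK_KO 3 and the lowest JNK_WT 1. Adjusted over the 4 ratios, the smallest p-value was 0.667.

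**Figure D5:**
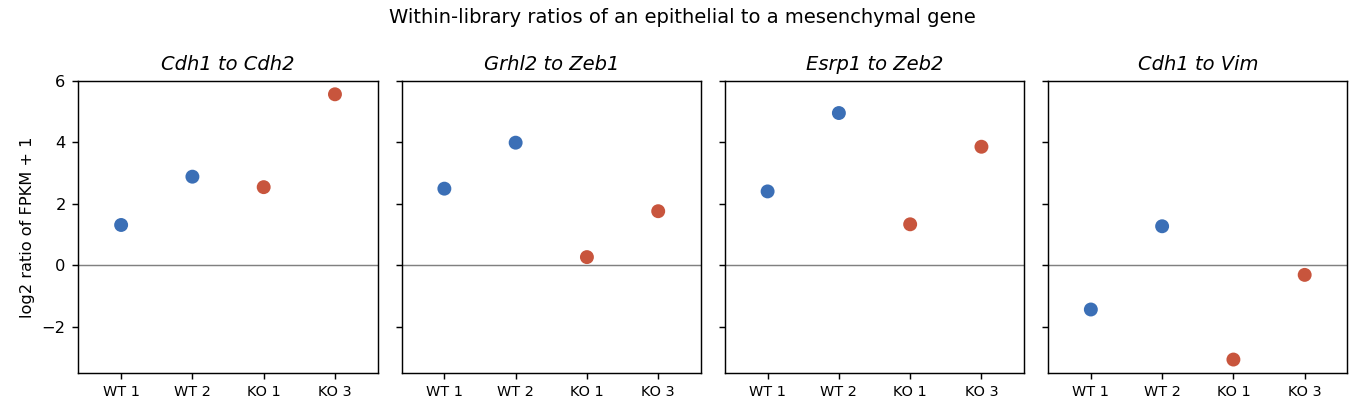
Log2 ratio of an epithelial to a mesenchymal gene (vertical axis, 1 FPKM added to each gene, 0 marking equal levels) in each library, blue for JNK_WT and red for JNK_KO. Grhl2 to Zeb1 lies at 2.49 and 3.99 in JNK_WT and at 0.26 and 1.76 in JNK_KO lines without overlap, and the groups of the other 3 ratios overlap.

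Further regulators of EMT and of epithelial fate were described as a list, of which 17 were tested and 0 called (12 above and 5 below 0, median 0.42, 2 at an unadjusted limma p-value under 0.05). Without overlap, 5 were higher in JNK_KO lines (Elf3, Prrx1, Rbfox2, Id1 and Id2) and 1 was lower (Tcf3), beside 18.3% and 16.7% of all tested genes. Leaving out 1 line moved the median of the list from -0.085 without JNK_WT 1 to 0.86 without JNK_WT 2. Id1, whose product blocks helix-loop-helix factors such as those of the Twist and E protein families, was at 10.2 and 14.7 FPKM in JNK_WT lines and at 86.9 and 62.9 FPKM in JNK_KO lines (2.50, SE 0.32, limma adjusted p = 0.186). Prrx1, a homeobox gene of mesenchyme, was at 5.93 and 6.80 FPKM in JNK_WT lines and at 41.0 and 20.7 FPKM in JNK_KO lines (2.04, SE 0.41, limma adjusted p = 0.331). For both, lines of a genotype lay closer to each other than to either line of the other genotype on the log2(FPKM + 1) scale.

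Others of this list followed the lines and not the genotype. The Snail paralog Snai2 was at 1.52 and 13.2 FPKM in JNK_WT lines and at 5.42 and 2.24 FPKM in JNK_KO lines, so that JNK_WT 2, which had the least Snai1, had the most Snai2. The epithelial ETS factor gene Elf5 was at 12.4 FPKM in JNK_WT 2 and 13.5 FPKM in JNK_KO 3 and did not exceed 0.5004 FPKM in the other lines. Klf4 was at 5.39 FPKM in JNK_WT 1 and between 25.2 and 52.5 FPKM in the other lines. Of the 17 genes, 14 were higher in JNK_WT 2 than in JNK_WT 1. The median of JNK_WT 2 minus JNK_WT 1 was 0.69 in the list and 0 over all tested genes. The miR-200 family, which targets Zeb1 and Zeb2, could not be examined, since the hairpin rows of Mir200a, Mir200b, Mir200c and Mir141 were listed at 0 in every library.

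Genes whose profile over the 4 libraries was among the most like that of Grhl2, the epithelial gene with the widest range of log2(FPKM + 1), were Adamts1, Ubxn11, Epn3 and Kdm6b. Their root mean square distances from Grhl2, on centred log2(FPKM + 1) profiles, were 0.05, 0.06, 0.08 and 0.09, with a median of 0.68 over the 12997 other genes. Adamts1, a secreted metalloprotease gene, was at 8.41 and 18.9 FPKM in JNK_WT lines and at 5.09 and 12.3 FPKM in JNK_KO lines. For Cdh2, the mesenchymal gene with the widest range on that scale, the nearest were Snora41, Snord15b, Nes, Phactr1 and M1ap. Their distances were 0.39, 0.39, 0.39, 0.40 and 0.45, with a median of 1.54. All of them were low in JNK_KO 3, at most 0.991 FPKM, with Snora41 at 0 and Snord15b at 0.111 FPKM. Nes, which encodes the intermediate filament nestin, was at 16.1 and 4.76 FPKM in JNK_WT lines and at 5.47 and 0.601 FPKM in JNK_KO lines. With 4 libraries, such likeness is a description.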

How the data were processed

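RNA-seq was done on 4 mammary tumor cell lines (JNK_WT 1 and 2, JNK_KO 1 and 3), and group and replicate number came from the sample labels. The authors trimmed single-end reads with Trimmomatic, sampled them with seqtk to a like number per library and aligned them to mm10, and the submitters' processing notes name TopHat2 2.0.14, Bowtie2, Cufflinks 2.2.1 and Cuffdiff. The deposited values were FPKM, with 1 value per gene and library. The annotation and any strand setting of the authors were not given in the sources used here. Cufflinks splits shared reads between overlapping genes and paralogs by estimate.

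Of 38741 rows, 27 with symbols turned into dates and 1 without a value were left out. Genes with FPKM of at least 1 in at least 2 libraries were compared on log2(FPKM + 1), which understates changes of low genes, by a two-sided test in limma 3.58.1 (R 4.3.3, eBayes, trend on intensity). P-values were adjusted by Benjamini-Hochberg across 12998 tested genes. Calls took the cutoffs of the study, adjusted p under 0.05 and a log2 difference over 0.75 in size, but its own test, which works on alignments, was not run. The script was tested on simulated data. Ratios were compared by exact permutation over the lines.

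The members, lists and tests were chosen with earlier results of these data known. Named were all members, genes of the regulator, cadherin, effector and targeted lists, the 3 epithelial genes with the largest difference, and the 5 genes nearest in profile to the epithelial and mesenchymal member with the widest log2 range, of which 1 is not reported here. Marker genes of other cell types were named as checks. Positions came from GENCODE M21 (GRCm38) and promoters from RefSeq (GRCm38.p6), in which 5 members were searched. Cdh2 and Zeb1, on chromosome 18, were left out of the search by plan, and Cdh1, Grhl2 and Esrp1 had no entry.

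The study states an average read number after sampling, and no total per library was used here. Steps between low values gave relative depths of 1.06, 1.27, 0.993 and 1.40 for JNK_WT 1, JNK_WT 2, JNK_KO 1 and JNK_KO 3, and no counting interval was made. Alternatives were other pseudocounts, filters, scalings and variance models, a threshold of 0.1 and fits without each line. Summaries and figures used Python 3.11.15, pandas 2.3.3, numpy 2.4.6 and matplotlib 3.10.9.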

Additional observations from a re-analysis of the deposited data

How the results depend on the processing

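No paired analysis was possible because 1 is the sole replicate number found in both groups, and the labels tie it to no common mouse, litter or day. FPKM carry no read counts per gene, so no counting error is given for low values such as those of Twist2, and 2 lines per genotype limit every comparison. Of the 10 genes, 0 were called under any setting. The count over all genes, 0, became 25 at an adjusted p-value under 0.1, 10 or 14 when 0.1 or 0.5 FPKM was added before the log, and 14 when the variance model had no intensity trend, and the cause was not tested. The filter at a mean of 5 FPKM removed Zeb1 and Twist2. The count of members without overlap, 3, ranged from 5 to 8 when 1 line was left out, which raises it by construction (61.0% to 72.1% of all tested genes under these fits).

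Direction turned in some fits without 1 line. Without JNK_WT 2 the log2 difference was -0.23 for Vim, -0.33 for Snai1, -1.06 for Twist2, -0.042 for Zeb2 and 0.15 for Esrp1, and 0.19 for the Esrp1 to Zeb2 ratio. Without JNK_KO 1 it was 0.11 for Cdh1, -0.14 for Twist2, 0.36 for Esrp1 and 0.18 for that ratio. Over the 4 such fits the ranges were -1.002 to 0.11 for Cdh1, -0.23 to 2.55 for Vim, -0.33 to 1.75 for Snai1, -1.06 to 1.56 for Twist2, -0.042 to 1.87 for Zeb2, -0.71 to 0.36 for Esrp1 and -2.36 to 0.19 for the ratio. Zeb1, Cdh2 and Twist1 kept their direction in all of them, which holds by construction because their groups did not overlap. Grhl2 kept its direction too, but with a range from -1.195 to -0.019. Under the other pseudocounts, filters, scalings and variance models no member changed direction, although Twist2 ranged from 0.021 to 1.002.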
